A study of Homo sapiens with 2 samples.

Results

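The genes described here encode the proteasome, its interferon-inducible variant and the factors that assemble and activate it, in MDA-MB 231 cells with and without S100A7. They were taken by symbol, as every probe set annotated to 1 gene whose name begins with PSMA, PSMB, PSMC, PSMD, PSME or PSMG and a digit, plus POMP. The rule returned 95 of the 54675 probe sets on the array, for 50 of 19777 annotated genes. Of these, 42 genes with 79 probe sets encode subunits, activators or assembly chaperones, and the other 8 symbols (16 probe sets) are antisense or divergent transcripts and 2 protein genes of other function that share the prefix. Of the 48 family genes listed by role, 41 were measured, 1 (PSMA8) had a probe set below the floor on both arrays, and 6 (PSMA6, PSMB11, PSMC5, PSMD7, PSMD13 and PSME2) were not analysed here. The 5 probe sets that named a family gene together with another gene were left unassigned, and their log2 ratios ran from -0.30 to 0.10.

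MDA-MB 231 is a breast cancer line of basal type that lacks the estrogen receptor. Its cells were stably transfected either with S100A7, a small calcium-binding protein of inflamed epithelium, in the plasmid pIRES2-EGFP or with that plasmid alone, so that both lines carry the vector and its fluorescent marker. Total RNA of each line was hybridised to 1 Affymetrix expression array, giving 2 arrays in all, and the series asks which genes S100A7 regulates. The labels do not say whether each stable line was 1 clone or a pool. With 1 array per group there was no replicate, so no difference below was checked against the spread between cultures and none has a p-value; fold sizes describe these 2 arrays.

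The proteasome is the protease complex that degrades ubiquitin-tagged proteins. Its barrel-shaped 20S core has outer rings of alpha subunits, which gate the channel, and inner rings of beta subunits, of which PSMB5, PSMB6 and PSMB7 carry the proteolytic sites; the 19S cap, built of a base and a lid, recognises, unfolds and feeds in the substrate. In leukocytes, and in many other cells after interferon, the subunits PSMB8, PSMB9 and PSMB10 take the places of PSMB5, PSMB6 and PSMB7 in newly built cores, and this immunoproteasome yields more of the peptides that suit MHC class I molecules.

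The labels and the arrays were checked first. The transfected gene S100A7 read 11.99 with the vector and 13232 with S100A7. All 7 markers listed for a mesenchymal-like basal line, such as VIM and CD44, lay above the floor, while ESR1, PGR, CDH1 and FOXA1 lay below it on both arrays; EPCAM (544 and 513) and GATA3 (720 and 752), which were listed as absent or low, lay above it. Leukocytes, which contain immunoproteasomes without stimulation, left little signal: of 9 leukocyte markers with a probe set, 1 was above the floor, CSF1R at 128 and 164, the summed intensity of the 9 was 366 with the vector and 403 with S100A7, and PTPRC read 27.2 and 50.1. Their part in the results was not tested. The 3' over 5' ratio, a sign of RNA integrity, was 1.09 and 1.07 for ACTB and 0.718 and 0.801 for GAPDH.

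The 3 immunoproteasome catalytic genes were all higher on the S100A7 array, and the 3 constitutive catalytic genes were all slightly lower, PSMB5 and PSMB6 by amounts that changed sign once chromosomal neighbours were taken into account. PSMB9, the immuno counterpart of the caspase-like subunit, read 461 with the vector and 1004 with S100A7, a 2.18-fold higher intensity. PSMB10, the counterpart of the trypsin-like subunit, read 541 and 908 and was 1.68-fold higher. PSMB8, the counterpart of the chymotrypsin-like subunit, read 1535 and 2086 and was 1.36-fold higher. Each of these genes had 1 probe set, so no second measurement on the array bore on it, and that of PSMB8 carries the suffix _s_at, which marks probes that can match several transcripts.

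The constitutive genes stayed close to a ratio of 1. PSMB5, the chymotrypsin-like subunit and the main target of proteasome inhibitor drugs, read 9184 with the vector and 8549 with S100A7 (log2 ratio -0.10). PSMB6, the caspase-like subunit, read 11343 and 10968 (log2 ratio -0.05). PSMB7, the trypsin-like subunit, read 20431 and 18033 (log2 ratio -0.18), and a dimmer probe set of the same gene read 237 and 263 (log2 ratio 0.15), so the sign for PSMB7 differed between its probe sets.

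**Figure D1:**
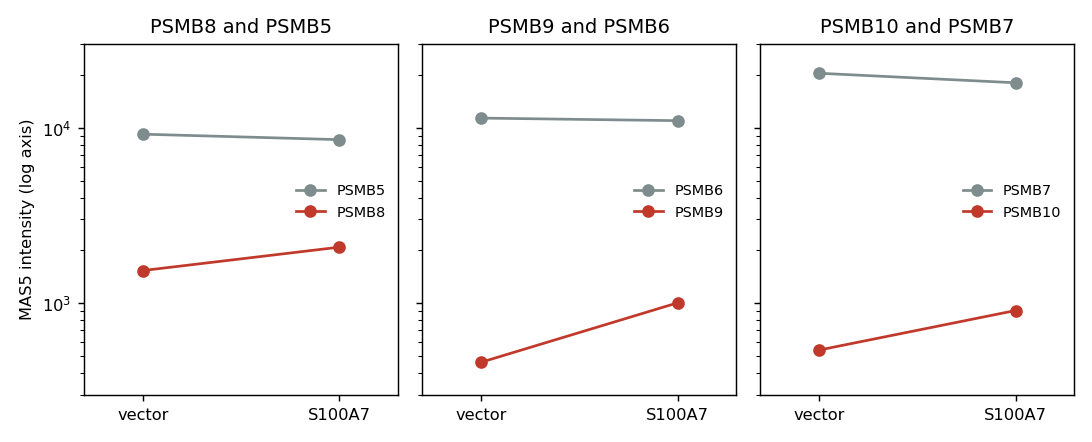
MAS5 intensity (log axis) of the 3 immunoproteasome catalytic genes (red) and of the constitutive subunit each replaces (grey) on the vector and the S100A7 array, 1 array each. The red lines slope upward, from 461 to 1004 for PSMB9, while the grey lines are nearly flat; heights of different genes are not comparable, because each probe set has its own brightness.

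Set against each other on the log2 scale, the immuno genes had a mean ratio of 0.77 and the constitutive genes of -0.11, a difference of 0.88, or 1.84-fold in the ratio of ratios. Pair by pair the difference was 1.17 for PSMB9 against PSMB6, 0.93 for PSMB10 against PSMB7 and 0.55 for PSMB8 against PSMB5. Leaving out each of the 6 genes in turn gave differences from 0.71 to 1.05. For scale, the log2 ratios of probe sets of the same gene differed with a pooled standard deviation of 0.36 over 6465 genes. This is a spread between probes on the same arrays and not between cultures. It is also the spread of 1 ratio, whereas each pair difference carries the spread of 2 ratios, so 0.36 is too small a scale for the pairs. The difference for PSMB8 and PSMB5 is the nearest to it.

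The promoters of PSMB8, PSMB9 and PSMB10 are shown with that of PSMB5 and with that of PSMG4, an assembly chaperone gene described further on. PSMG4 had the highest ratio of any member. No window was available for PSMB6 or PSMB7, so PSMB5 alone stands for the constitutive catalytic genes. Windows run from 250 bases before to 50 bases after the annotated start of the gene, 5' to 3' on the gene's strand, from RefSeq on GRCh38.p14: PSMB5 at chr14:23035171-23035470 (minus strand), PSMB8 at chr6:32844630-32844929 (minus strand), PSMB9 at chr6:32853942-32854241 (plus strand), PSMB10 at chr16:67936801-67937100 (minus strand) and PSMG4 at chr6:3258697-3258996 (plus strand). Capitals mark GAAANNGAA, a pair of half-sites of the interferon-stimulated response element, in PSMB10 and PSMG4, and TGACNNNGC, the antioxidant response element, on the opposite strand in PSMB9.
PSMB5: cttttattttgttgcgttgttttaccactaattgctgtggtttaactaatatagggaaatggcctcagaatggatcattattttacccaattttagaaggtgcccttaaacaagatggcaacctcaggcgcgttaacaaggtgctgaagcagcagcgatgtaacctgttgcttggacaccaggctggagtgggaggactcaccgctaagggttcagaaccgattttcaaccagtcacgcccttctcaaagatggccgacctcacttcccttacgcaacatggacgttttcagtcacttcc
PSMB8: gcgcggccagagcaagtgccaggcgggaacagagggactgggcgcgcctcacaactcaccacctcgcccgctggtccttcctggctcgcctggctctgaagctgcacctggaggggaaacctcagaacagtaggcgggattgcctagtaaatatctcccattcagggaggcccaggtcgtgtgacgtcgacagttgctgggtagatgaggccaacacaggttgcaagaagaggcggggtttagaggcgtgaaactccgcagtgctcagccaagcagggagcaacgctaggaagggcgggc
PSMB9: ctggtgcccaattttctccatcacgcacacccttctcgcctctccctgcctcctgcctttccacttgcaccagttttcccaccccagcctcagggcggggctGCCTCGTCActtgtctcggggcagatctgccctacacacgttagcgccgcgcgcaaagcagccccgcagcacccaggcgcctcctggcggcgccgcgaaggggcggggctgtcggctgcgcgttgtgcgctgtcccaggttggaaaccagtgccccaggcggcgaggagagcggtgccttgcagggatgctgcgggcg
PSMB10: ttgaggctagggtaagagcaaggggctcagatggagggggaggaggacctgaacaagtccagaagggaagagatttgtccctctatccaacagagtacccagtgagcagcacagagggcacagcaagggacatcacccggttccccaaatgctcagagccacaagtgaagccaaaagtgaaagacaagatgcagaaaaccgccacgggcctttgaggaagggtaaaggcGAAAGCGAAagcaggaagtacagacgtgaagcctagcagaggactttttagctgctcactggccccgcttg
PSMG4: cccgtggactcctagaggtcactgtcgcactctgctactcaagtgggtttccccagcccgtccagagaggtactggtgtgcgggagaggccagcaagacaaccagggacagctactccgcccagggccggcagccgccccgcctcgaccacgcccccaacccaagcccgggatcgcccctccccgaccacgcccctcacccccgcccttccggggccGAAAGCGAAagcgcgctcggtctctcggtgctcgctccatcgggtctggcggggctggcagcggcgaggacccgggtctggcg

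Promoter windows were found for 35 of the 41 measured members. On either strand, GAAANNGAA was present in 7 of the 35 (20%) and in 8.29% of 27305 promoters of the same length. In PSMB10 it began 21 bases before the annotated start and in PSMG4 33 bases before it, in both on the strand of the gene, and the other 5 genes were POMP, PSMA4, PSMB4, PSMC2 and PSME1. The 7 genes had a median log2 ratio of 0.29, ranging from -0.32 for PSMA4 to 1.17 for PSMG4, and the 28 others of -0.01. The median of 0.29 is the value of POMP, whose dimmer probe set had a log2 ratio of -0.39, so it depends on the probe set. TGACNNNGC, the element through which NFE2L1 and its relatives act, was found in 12 of 35 windows (34.3%) against 13.6% of all promoters, and its 12 genes had a median of 0.00. TTCNNNGAA, the gamma-activated site through which interferon-gamma also acts, was found in 4 windows (11.4%, against 7.88%). Its 4 genes, PSMA2, PSMC4, PSMD3 and PSME3, had a median of -0.09, and the 31 others of 0.02. The letters CCAAT were found in 16 windows (45.7%, against 35.7%), with a median of -0.01 against 0.02 for the 19 others. The NF-kB consensus was found in 0 of 35 (against 10.8%). The windows of PSMB8 and PSMB5 hold no match to the interferon, gamma-activated, antioxidant or NF-kB letters. That of PSMB9 holds no match to the interferon, gamma-activated or NF-kB letters. In the members' windows, 0 pairs of matches to different motifs overlapped. A match is a run of letters and not a shown binding site.

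Beyond the catalytic genes, the family as a whole lay near a ratio of 1. The median log2 ratio of the 41 measured genes was 0.00, with 21 above 0 and 20 below, while the median over all 12688 measured genes was -0.04, with 45.8% above 0. The middle of the family, from its 25th to its 75th percentile, spanned -0.18 to 0.23, against -0.31 to 0.24 for all genes. At least 2-fold higher were 2 of 41 members, PSMB9 and PSMG4 (4.88%, against 1.80% of all measured genes), and 0 of 41 were at least 2-fold lower (against 2.25%). At 1.5-fold, 3 members were higher (7.32%, against 8.12%) and 1 was lower (2.44%, against 10.0%). Each share rests on 0 to 3 genes, and the share at least 1.5-fold higher is near the background.

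Proteasome genes are bright, which matters because dim probe sets scatter more. Of the 41 members, 39 were among the 4230 brightest measured genes, those with a mean intensity above 1332. Of these 39, 1 lay beyond 2-fold and 2 beyond 1.5-fold in either direction, against 1.06% and 9.69% of the 4230. PSMB9 and PSMB10 are the 2 members outside that class. Members read from 461 to 26236, all above the floors of 71.0 and 69.0.

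**Figure D2:**
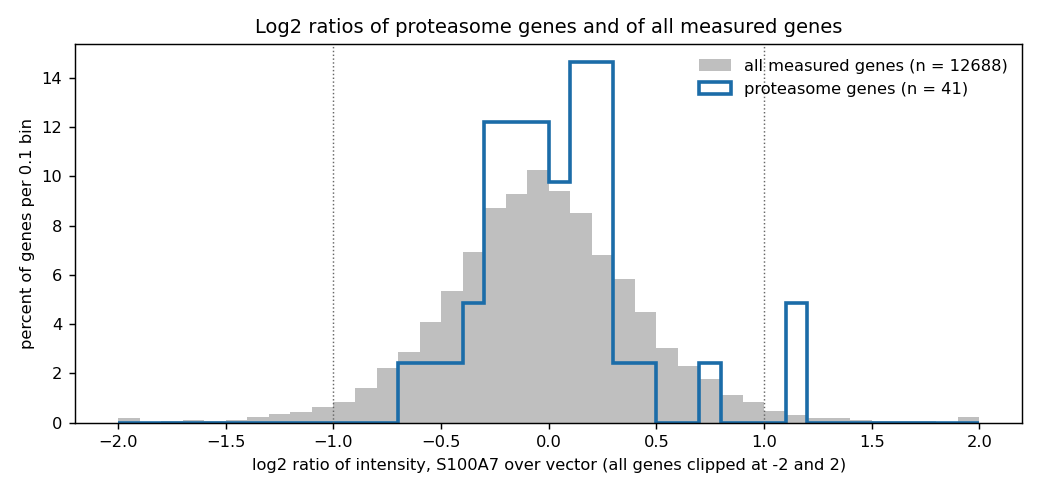
Histogram of log2 ratios, S100A7 over vector, in bins of 0.1, as percent of genes, for all 12688 measured genes (grey) and the 41 proteasome genes (blue outline); dotted lines mark 2-fold, and ratios of all genes beyond -2 or 2 are drawn at the edge. The proteasome genes gather around 0, with 2 genes beyond the upper 2-fold line.

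Leaving aside the 3 immuno genes, PSMG3 and PSMG4, a split made after the values were seen, the other 36 members lay between -0.51 and 0.35, that is, from 1.43-fold lower to 1.27-fold higher, with a standard deviation of 0.22. The 27 core and cap subunits outside the immuno group, which enter the 26S particle in fixed numbers, had a median of -0.05 and a standard deviation of 0.22, with 11 above 0.

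In the alpha ring, 6 genes were measured and their median was -0.06, with 3 above 0 and 3 below. PSMA3 was the highest of them, at 9901 with the vector and 12592 with S100A7 (1.27-fold higher), and its dimmer probe set had a similar log2 ratio of 0.38. PSMA2 was the lowest, at 14001 and 9818 (1.43-fold lower), but its other probe set read 1510 and 1428, a log2 ratio of -0.08, so the size of this difference depended on the probe set. The 3 probe sets of PSMA1 were within 0.02 of one another on the log2 scale, between 0.18 and 0.20. PSMA8, an alpha subunit of the testis, read 22.2 and 4.42, below the floor on both arrays.

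Among the structural beta subunits, which have no proteolytic site, PSMB2 was the highest (10856 and 13097, 1.21-fold higher), with its 3 probe sets at 0.27 to 0.49. PSMB3 was the lowest (16747 and 15323, log2 ratio -0.13). The median of the 4 genes was -0.04. PSMB1 and PSMB4, read by 2 and 3 probe sets, each had probe sets on both sides of 0.

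The base of the cap unfolds substrates with 6 ATPases, of which 5 were measured, with a median of 0.11 and 4 of 5 above 0. PSMC2 was the highest (9625 and 11305, log2 ratio 0.23) and all 3 of its probe sets lay above 0. PSMC4 was the lowest (4374 and 3663, log2 ratio -0.26). Of the base subunits without ATPase activity, PSMD1 (4962 and 4539, log2 ratio -0.13) and PSMD2, both large scaffold proteins, lay below 0, and PSMD4, a receptor for ubiquitin chains, lay above it at 0.15 (7130 and 7924), with 3 measured probe sets between 0.15 and 0.27.

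The lid had a median of -0.24 over 6 measured genes, 4 of them below 0, and of -0.12 after subtraction of chromosomal neighbours. SEM1 was not counted here, as its symbol falls outside the rule. PSMD8 read 9060 with the vector and 6695 with S100A7, 1.35-fold lower. PSMD14, the deubiquitinase that removes ubiquitin chains from substrates, read 11639 and 9739 (log2 ratio -0.26). PSMD12 was the highest lid gene, at 6719 and 7855 (log2 ratio 0.23). PSMD11 showed the widest disagreement between probe sets of any member: the brighter read 8322 and 7121 (log2 ratio -0.22), and the dimmer read 860 and 1512 (log2 ratio 0.81). The direction for PSMD11 therefore cannot be stated, and with the median over probe sets the lid median was -0.09.

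**Figure D3:**
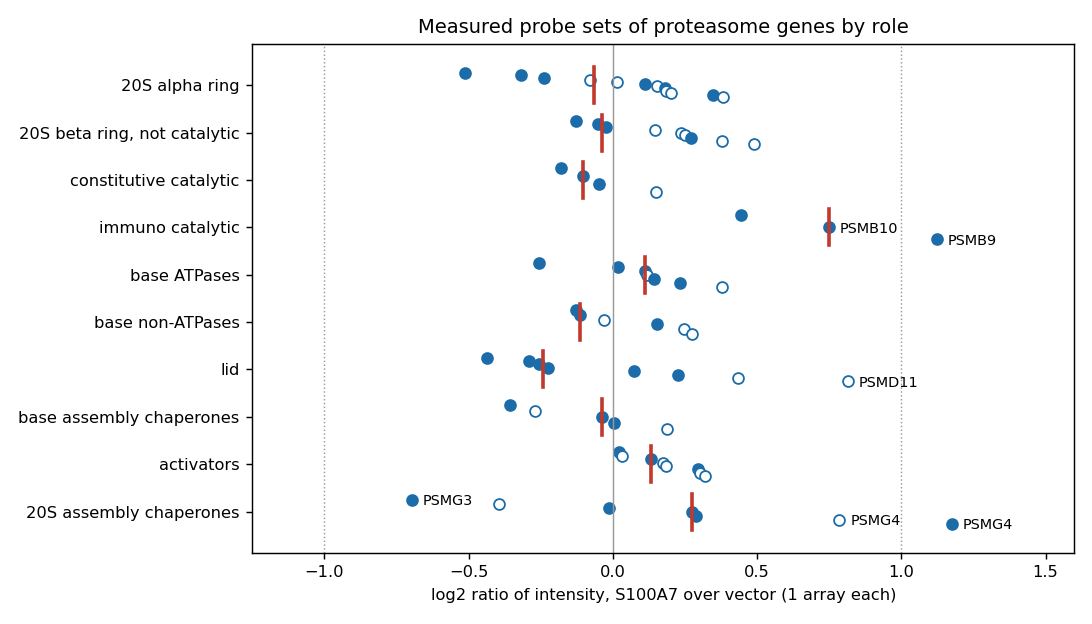
Log2 ratio of intensity, S100A7 over vector, for the 69 measured probe sets of proteasome genes, by role; filled points represent their gene (its brightest probe set), open points are its other probe sets, red bars mark the median of the filled points and dotted lines mark 2-fold. The immuno catalytic genes have a median of 0.75 and all lie to the right of 0, PSMG4 and PSMG3 lie apart from the other assembly chaperones, and 1 open point of PSMD11 lies far from its filled one.

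The assembly chaperones held both extremes of the family. PSMG1 and PSMG2 form a dimer, as do PSMG3 and PSMG4, and both dimers help the alpha ring form. PSMG4 read 917 with the vector and 2070 with S100A7, 2.26-fold higher, the highest ratio of any member; 129 of all 12688 measured genes, PSMG4 included, had a ratio at least as high. The probe set carries the suffix _s_at, and the second measured probe set of the gene read 59.6 and 122, at least 1.72-fold higher because its vector value was below the floor. The other 3 probe sets of PSMG4 were below the floor on both arrays.

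PSMG3, the partner of PSMG4, stood at the opposite end. It read 2061 with the vector and 1271 with S100A7, 1.62-fold lower, on its 1 probe set. The partners thus differed by 1.87 on the log2 scale, or 3.66-fold in their ratios. In the other dimer the difference was 0.29, with PSMG1 at 4365 and 4321 and PSMG2 at 8794 and 10639.

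POMP, which is needed for the beta subunits to mature and is itself degraded by the finished core, gave 2 answers. Its brighter probe set read 15087 and 18433 (log2 ratio 0.29) and its dimmer one 1268 and 965 (log2 ratio -0.39), so its direction depended on the probe set. The chaperones of the base lay near or below 0: PSMD10 (gankyrin) read 2691 and 2697, PSMD5 had a log2 ratio of -0.04, and PSMD9 read 3444 and 2692 (log2 ratio -0.36), with its other probe set at -0.27.

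The activators, which cap the core in place of the 19S particle, all lay above 0 by small amounts. PSME1, a subunit of the interferon-inducible activator PA28 whose partner PSME2 was not analysed here, read 2521 and 3093 and was 1.23-fold higher. PSME3, the nuclear relative, had 4 measured probe sets between 0.13 and 0.32. PSME4 was the lowest at 0.02 (2124 and 2156), with its 3 probe sets between 0.02 and 0.30.

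Of the 20 members with at least 2 measured probe sets, all probe sets had the same sign in 14 and differed in sign in 6. The pooled standard deviation between probe sets of a member was 0.22 on the log2 scale. PSMB8, PSMB9, PSMB10 and PSMG3 have 1 probe set each, so none of them entered that figure.

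Position along the chromosome was examined because PSMB8 and PSMB9 lie together in the MHC class II region, beside the peptide transporter genes TAP1 and TAP2. On GRCh38.p14, PSMB8 occupies chr6:32840717-32844679 on the minus strand and PSMB9 chr6:32854192-32859851 on the plus strand, with TAP1 between them on the minus strand; the starts of TAP1 and PSMB9 are 488 bases apart, so that the genes diverge from a short shared stretch. TAP1 nevertheless read 834 with the vector and 956 with S100A7, 1.15-fold higher, against 2.18-fold for PSMB9. TAP2 read 2303 and 2559 (1.11-fold higher).

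Among 27 other measured genes around PSMB8 and PSMB9, 19 had a log2 ratio above 0 (against 45.8% of all measured genes) and the median was 0.15. Of these 27, 2 were at least 1.5-fold higher (against 8.12% of all measured genes). Beyond 2-fold, 0 lay upward (against 1.80%) and 1 (HLA-DRB1) downward (against 2.25%). PSMB9 had the highest ratio of the stretch, followed by HLA-DMA (198 and 368, 1.86-fold higher), a class II peptide-loading gene. Chromosome 6 as a whole had a median of 0.24 over its 664 measured genes. Of the members, 4 lie on chromosome 6, and PSMG4 is among them, with PSMB1 (log2 ratio -0.03). PSMB10 lies on chromosome 16, where the median over 566 measured genes was -0.12.

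**Figure D4:**
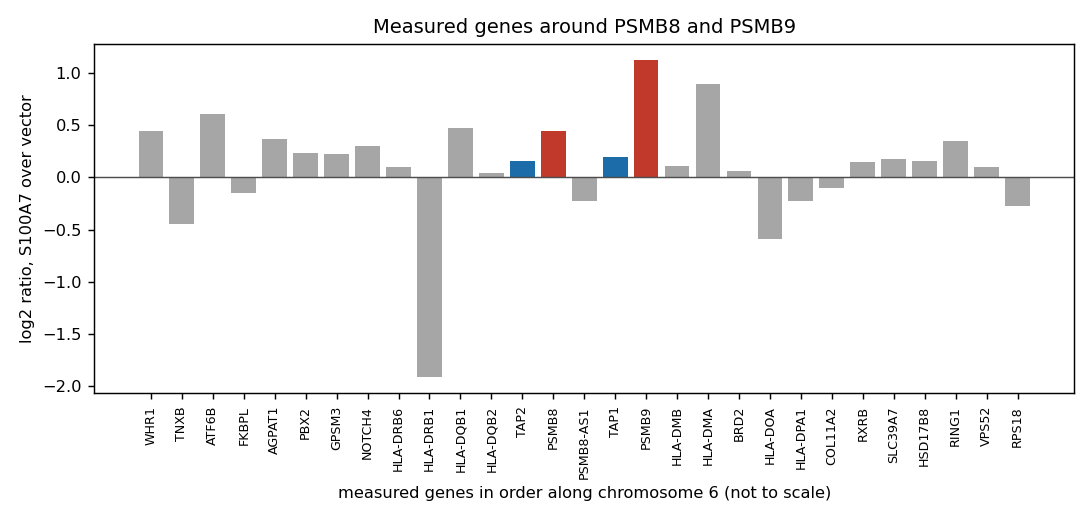
Log2 ratio, S100A7 over vector, of the 29 measured genes in order around PSMB8 and PSMB9 on chromosome 6 (not to scale); immunoproteasome genes are red, TAP1 and TAP2 blue, others grey, and values below the floor were raised to it. PSMB9 has the highest bar at 1.12 and its divergent neighbour TAP1 stands at 0.20.

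Across the family, ratios varied with those of the surrounding genes. For each member the nearest measured genes outside the family were found, up to 20 on each side, and the median of their log2 ratios was taken. Near a chromosome end a side can hold fewer, and at least 20 in all were required. Over 41 members this median and the member's own ratio had a Pearson r of 0.47 and a Spearman rho of 0.54. Over 12658 measured genes the values were 0.38 and 0.41. Genes that lie close together share part of their neighbours, so these are descriptions. PSMG3 (-0.70) lay among genes with a median of -0.28, PSMA2 (-0.51) of -0.25 and PSMD8 (-0.44) of -0.26. DNA copy number was not measured, and its part was not tested.

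After that median was subtracted, PSMB9 stood at 0.97, PSMG4 at 0.94, PSMB10 at 0.85 and PSMB8 at 0.27, so that 0 members were 2-fold higher. The immuno genes exceeded the constitutive genes by 0.64 in place of 0.88. Of the constitutive genes, PSMB5 (0.17) and PSMB6 (0.09) then lay above 0 and PSMB7 (-0.08) below it, and the difference between PSMB8 and PSMB5 was 0.10 in place of 0.55, against 0.88 for PSMB9 and PSMB6 and 0.94 for PSMB10 and PSMB7. PSMG3 stood at -0.41, and PSMC2, whose neighbours had a median of -0.45, at 0.68.

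**Figure D5:**
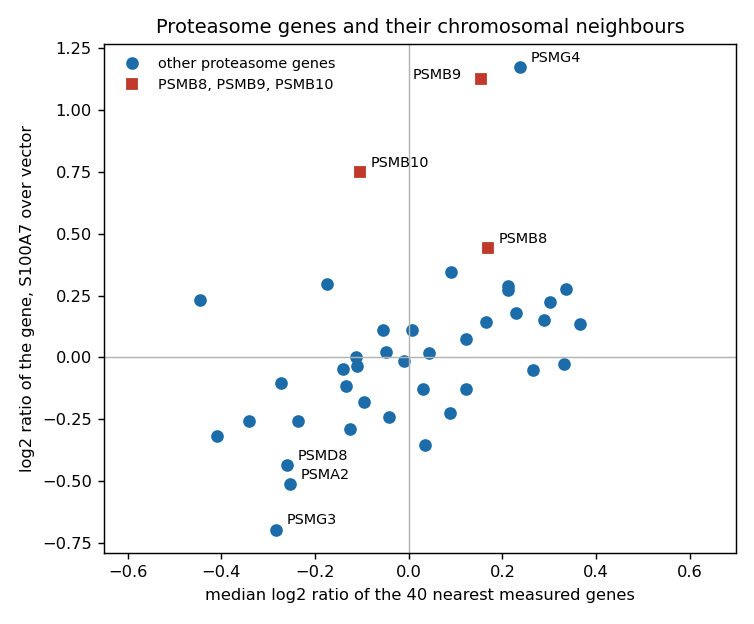
Log2 ratio of each of the 41 measured proteasome genes, S100A7 over vector (vertical axis), against the median over its nearest measured neighbours on the chromosome, up to 40 (horizontal axis). PSMB9, PSMB10 and PSMG4 lie above the other genes at neighbour medians of 0.15, -0.10 and 0.24, and PSMG3, PSMA2 and PSMD8 lie at the lower left.

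The other genes around the proteasome were taken from lists by function. Of 15 measured proteasome-associated genes, 5 lay above 0 (against 45.8% of all measured genes) and the median was -0.10. SEM1, a small lid subunit named outside the PSM series, was the lowest, at 13816 with the vector and 6907 with S100A7 (an S100A7 over vector ratio of 0.4999), on 1 probe set. PSMF1, an inhibitor of the core, read 3426 and 2337 (log2 ratio -0.55), although its 4 probe sets reached up to 0.22, and UBQLN4, a shuttle for ubiquitinated proteins, had a log2 ratio of -0.45. The highest were TXNL1, a redox protein bound to the cap (3479 and 5485, 1.58-fold higher), AKIRIN2, which brings proteasomes into the nucleus (0.26), and UBQLN1 (0.17).

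NFE2L1, the transcription factor that raises proteasome subunit genes when proteasome activity is short, read 3567 and 4588 (log2 ratio 0.36), and its 3 probe sets lay between 0.36 and 0.48. In its list of 6 measured genes the median was -0.09 and 0 lay beyond 1.5-fold. MAFG (0.07) and VCP (-0.02) followed it, and NFE2L2 (-0.40), MAFF (-0.17) and NGLY1 (-0.16) were the lowest. Of the ubiquitin list 3 of 6 genes were measured: the ubiquitin gene UBB had a log2 ratio of -0.41, the activating enzyme UBA1 of -0.05 and UBA6 of 0.25.

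Among genes of interferon signalling, which controls PSMB8, PSMB9 and PSMB10 in many cells, 6 of 12 measured genes lay above 0. That share is near the 45.8% of all measured genes, and the median was 0.05. At least 1.5-fold, 3 of 12 were higher (against 8.12% of all measured genes) and 2 were lower (against 10.0%). NLRC5, an activator of MHC class I genes, was the 1 gene of 12 at least 2-fold higher (against 1.80%), at 123 and 311 (2.52-fold). IRF2 read 417 and 707 (1.69-fold higher), and both rest on 1 probe set. The interferon-gamma receptor gene IFNGR1 read 1368 and 2081 (1.52-fold higher, log2 ratio 0.60). It lies on chromosome 6, where the median log2 ratio was 0.24. IRF1, a direct inducer of PSMB9 in response to interferon, read 898 and 737 (log2 ratio -0.29). Its other measured probe set had a log2 ratio of -0.02, so the size of this difference depended on the probe set. The kinase JAK2 read 188 and 116, not far above the floor (log2 ratio -0.70). IRF8 read 113 and 51.3, below the floor in S100A7 cells and so at least 1.63-fold lower.

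Of 13 measured genes of class I peptide supply, 10 lay above 0 (against 45.8% of all measured genes) and the median was 0.28. Of the 7 on chromosome 6, where the median over all measured genes was 0.24, all 7 lay above 0, and of the 6 elsewhere 3 did, with medians of 0.35 and 0.07. ERAP1, which trims peptides, read 417 and 1039 (2.49-fold higher), but its 3 probe sets went down to -0.39. The tapasin gene TAPBP read 3707 and 6611 (1.78-fold higher), with 3 probe sets from 0.25 to 0.83. HLA-F read 2152 and 3499 (1.63-fold higher), with 3 probe sets from -0.10 to 0.82. The lowest were the chaperone genes PDIA3 (-0.22) and CANX (-0.05) and the light chain gene B2M (-0.03).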

How the data were processed

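Each line was read on 1 Affymetrix array. The authors deposited linear-scale intensity values, 1 for each probe set, summarised with MAS5 per the submitters' processing notes; the sources used here give no version, scaling target or detection calls. Both arrays had a mean of 500.1 once 2% of probe sets was trimmed at either end, and values were used as deposited. The S100A7 sample's description mentions embryos, which no other label bears out, and that remark was ignored.
Probe sets were named by the platform annotation: 41091 had 1 gene, 1801 several and 11721 none listed, with 62 controls; 41037 matched RefSeq (GRCh38.p14) by Entrez identifier. Each array's 50th percentile without controls (71.0 for vector, 69.0 for S100A7) was the floor: a probe set counted as measured once either array reached it, values under it were set to it, and a fold with a raised side is a bound. A gene's brightest measured probe set gave its log2 ratio. Alternatives were median centring, quantile normalization, floors at the 30th and 70th percentile or none, a pseudocount of 32, the median over probe sets, probe sets without _x_at and _s_at, a 1.5-fold threshold and subtraction of chromosomal neighbours. The number of arrays limits the precision, and no test was possible.

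Members and lists were chosen with earlier results of these data known. Named genes were the 6 catalytic genes, members beyond 1.5-fold, the highest and lowest of each role, the 3 members with the widest spread between probe sets, and the 3 highest and lowest of each list, plus TAP1, TAP2, NLRC5 and IRF1; others were chosen after their values were seen. The calculation was tested on simulated data. Python 3.11.15, numpy 2.4.6, pandas 2.3.3 and matplotlib 3.10.9 were used.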

Additional observations from a re-analysis of the deposited data

How the results depend on the processing

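No paired analysis was possible because each group had 1 array. The immuno genes exceeded the constitutive genes under all 16 alternatives, by 0.64 (chromosomal neighbours subtracted) to 1.05 on the log2 scale. Not all of these could change the result. Median centring cancels in a difference and the floors did not alter these genes, so each of these settings gave 0.88 again. Dropping _x_at and _s_at probe sets removes PSMB8 and so repeats the setting that leaves it out (1.05). All alternatives use the same 2 arrays. The median of the members was 0.00 and ranged from -0.04 to 0.06 over 9 alternatives, with 0.060 for the median over probe sets. The count of members at least 2-fold higher, 2 as reported, was 1 with the median over probe sets, 1 without _x_at and _s_at probe sets and 0 with chromosomal neighbours subtracted. The count at least 2-fold lower, 0 as reported, was 1 with no floor (PSMA8, which lies below the floor) and 1 at a threshold of 1.5-fold (PSMG3).

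Some role medians moved. The median of the 20S assembly chaperones, 0.27, was -0.0145 with the median over probe sets, -0.0145 without _x_at and _s_at probe sets and -0.0036 with neighbours subtracted. That of the non-catalytic beta subunits, -0.04, was 0.15 with the median over probe sets and -0.28 with neighbours subtracted. That of the alpha ring was -0.24 with no floor, which adds PSMA8, and that of the lid -0.092 with the median over probe sets. Of the single genes, 0 of 41 moved by more than 0.36 under scaling, floor or pseudocount alternatives, 1 with the median over probe sets, 3 with neighbours subtracted and 4 of 30 without _x_at and _s_at probe sets, a setting that drops 11 members, PSMB8 among them. Beyond the moves that fewer or added genes make by construction, the cause was not tested.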

Other observations

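The 8 symbols that share the prefix without naming a proteasome part were read separately. PSME3IP1, a protein that binds PSME3, had its brightest probe set at 5873 with the vector and 4322 with S100A7 (log2 ratio -0.44), with its 4 probe sets ranging up to 0.11. PSMC3IP, a recombination factor, read 1595 and 1514 (log2 ratio -0.08). Of the transcripts next to family genes, PSMA3-AS1 read 753 and 923 (log2 ratio 0.29, with its 3 probe sets up to 0.49), close to PSMA3 itself at 0.35. PSMD6-AS2 read 149 and 105 (log2 ratio -0.51), and PSMD6 had a ratio of -0.29. PSMB8-AS1, which runs antisense to PSMB8, had probe sets at -0.23 and 0.37 near the floor and gave no direction. PSMG3-AS1 read 89.0 and 93.1 beside the lower PSMG3, and PSMD14-DT and PSMD7-DT were below the floor on both arrays.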
